A study of Mus musculus with 30 samples.

Results

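The response to doxycycline (DOX) was followed in a mouse embryonic stem cell line labelled iETV2-KDM4A (H188A). The comparison used 6 of the 30 samples of the series, chosen by their labels: 3 libraries labelled DOX and 3 labelled Control. A further 3 DOX and 3 Control libraries, labelled iETV2, were used later to set the response beside that of a line without the KDM4A (H188A) name. The series studied how ETV2 works with the histone demethylase KDM4A, by RNA sequencing of 18 libraries and by H3K9me3 profiling of the others. The DOX and Control groups of the main comparison carry the same line name, so any introduced ETV2 or KDM4A (H188A) sequence is shared by treated and control cells. The dose and length of DOX treatment, the way the KDM4A variant was introduced, its promoter and whether the line is 1 clone are not given in the sources used here. The labels give the cell type as embryonic stem cell and do not say that replicates were separate cultures, so a p-value here measures only the spread between these libraries.

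ETV2 is an ETS family transcription factor that starts the endothelial and blood programme in embryonic mesoderm, where it activates other ETS, GATA and SOX factors and the VEGF receptor gene Kdr. DOX-inducible systems switch a chosen gene on when the drug is added, and the prefix iETV2 is commonly used for such a line. KDM4A removes methyl groups from histone H3 lysine 9, a mark of silent chromatin. The name H188A stands for a change of histidine to alanine at one of the residues that hold the iron atom in the catalytic centre, and this form is known as catalytically inactive.

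The 6 libraries were uneven. They held 40334911 to 68970038 counts, yet the library with the fewest counts, control replicate 1, detected the most genes. Of 55487 genes, 47063 had a count in control replicate 1, 42843 in control replicate 2 and 29384 in control replicate 3, against 28619, 35807 and 28264 in the DOX libraries. Olfactory, vomeronasal and taste receptor genes, which are silent in most tissues, summed to 598, 195 and 49.1 counts per 1000000 counts of the library (CPM) in the controls and to 41.1, 92.6 and 34.8 CPM with DOX. These counts spread thinly over 1573 of the 1751 receptor genes in control replicate 1 and over 287 in control replicate 3. The first principal component held 60.37% of the variance and ran from control replicate 1 at -101.82 to DOX replicate 3 at 54.84, with control replicate 3 (37.11) among the DOX libraries and DOX replicate 2 (-2.67) between. DOX replicate 1 stood apart in another way: its endoderm genes summed to 1470 CPM, against 748.4 to 969.5 CPM in the other 5 libraries. No 2 libraries of a group agreed within counting noise, with chi-square values of 11.13 to 114 per degree of freedom.

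**Figure D1:**
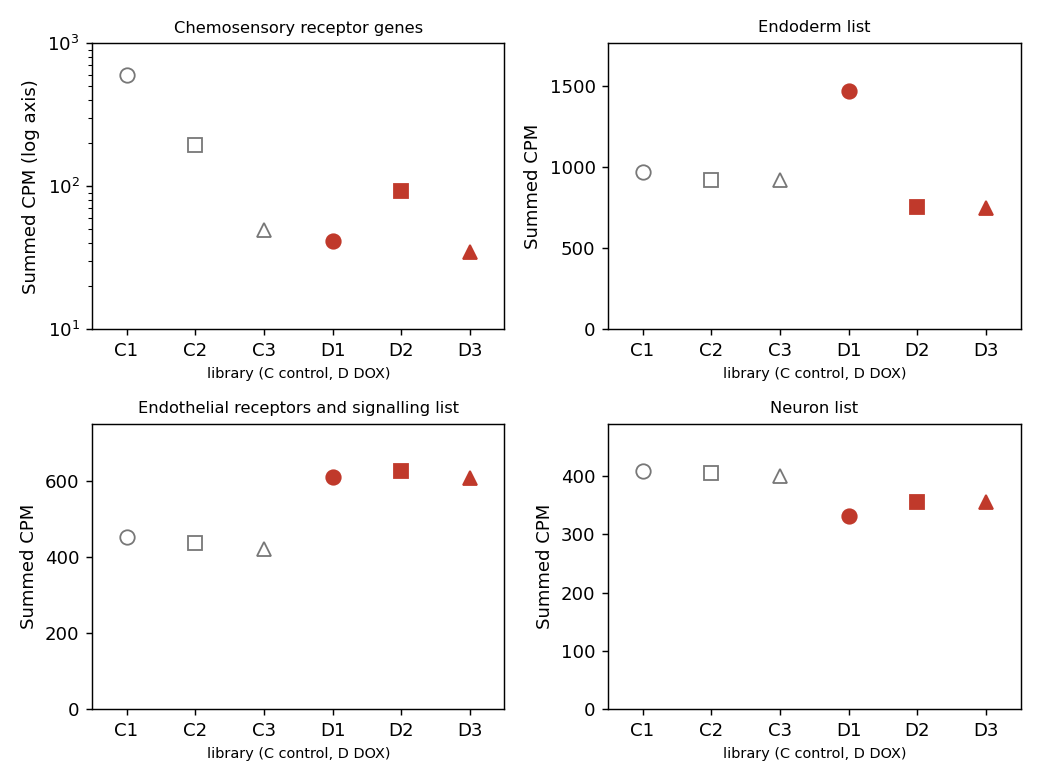
Summed CPM of 4 gene groups in each of the 6 libraries (C1 to C3 control, D1 to D3 DOX; circles, squares and triangles are replicates 1, 2 and 3; the receptor axis is logarithmic, the others start at 0). Receptor genes separate control replicate 1 (598 CPM) from the other libraries and endoderm genes separate DOX replicate 1 (1470 CPM), while the endothelial and neuron sums separate the groups.

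Because of this unevenness, each gene was tested with all 6 libraries and again 6 times with 1 library left out. A gene was counted as holding in every replicate when it passed an adjusted p of 0.05 in the same direction in all 7 fits and when its levels did not overlap between the groups. Levels below are CPM scaled between libraries by the trimmed mean of M values, called scaled CPM, and changes are log2 DOX over control with their standard error (SE).

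Etv2 itself, the gene that the line is named for, separated the groups. Its scaled CPM was 0.65, 0.14 and 0.32 in control replicates 1, 2 and 3 and 11.9, 18.7 and 15.9 in DOX replicates 1, 2 and 3. These levels rest on 27, 8 and 22 counts in the controls and on 557, 932 and 963 counts with DOX. The log2 change was 5.48 (SE 0.35, adjusted p = 7.133e-05), and the lowest DOX library was 18.2 times the highest control. Reads of the resident gene (chr7:30633616-30636509, GRCm38) and of an introduced copy cannot be told apart in counts per gene.

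Kdm4a did not follow. Its scaled CPM was 80.7, 85.6 and 80.4 in the controls and 86.0, 89.0 and 90.6 with DOX, a log2 change of 0.11 (SE 0.05, adjusted p = 0.262). Every DOX library was above every control, but the step was small, with a 95% interval of -0.01 to 0.22 on the log2 scale. The related demethylase genes Kdm4b (0.07, adjusted p = 0.514) and Kdm4c (-0.04, adjusted p = 0.650) did not pass either. Of the 11 H3K9 demethylase genes and the 16 genes for H3K9 methylation, none passed the edgeR quasi-likelihood test at an adjusted p of 0.05 or the DESeq2 test. With a filter of 1 CPM, edgeR called 1 of 10 demethylase genes as lower. In each of the 2 lists 1 gene fell at an unadjusted p under 0.05. Limma voom with quality weights called 2 and 3 of their genes, and 3819 of all 21086 genes tested. The counts do not separate the H188A form from the wild-type form, so its level was not tested.

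The cells kept the transcripts that define embryonic stem cells in both groups. Pou5f1, which encodes OCT4, stood at 457.5, 468.8 and 492.8 scaled CPM in the controls and at 427.5, 527.7 and 595.9 with DOX. The groups overlapped and the log2 change was 0.13 (SE 0.10, adjusted p = 0.481). Nanog (0.10, adjusted p = 0.382) and Sox2 (0.02, adjusted p = 0.882), which work with OCT4 in the pluripotency network, did not pass. Of 28 pluripotency genes tested, 1 fell in the fit with all libraries: Klf5, at 247.5 to 249.8 scaled CPM in the controls and 205.9 to 215.1 with DOX. Its call did not survive the loss of any single library. In this list 5 genes fell at an unadjusted p under 0.05 in that fit. With the 1 CPM filter 4 fell and by DESeq2 2 fell, while limma voom called 4 as lower and 2 as higher. Over all genes these 3 settings called 370 of 15103, 477 of 18224 and 1340 of 21086 as lower.

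With all 6 libraries, 637 of 21086 genes tested passed, which is 3.02%: 468 rose (2.22%) and 169 fell (0.801%). Groups did not overlap in 28.3% of all genes tested, so a lack of overlap alone was common. All 637 called genes were among those without overlap. The count moved widely when a library was left out. It fell to 81 without control replicate 2, 91 without DOX replicate 3, 140 without DOX replicate 2 and 203 without control replicate 1. It rose to 791 without DOX replicate 1 and to 1839 without control replicate 3, where decreases outnumbered increases (1081 against 758). Most calls were lost in most reduced fits: 413 of the 637 were kept in only 1 or 2 of the 6. These 413 had a median absolute log2 change of 0.36. A reduced fit has fewer libraries, so a lost call alone does not show that the change rested on 1 library.

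**Figure D2:**
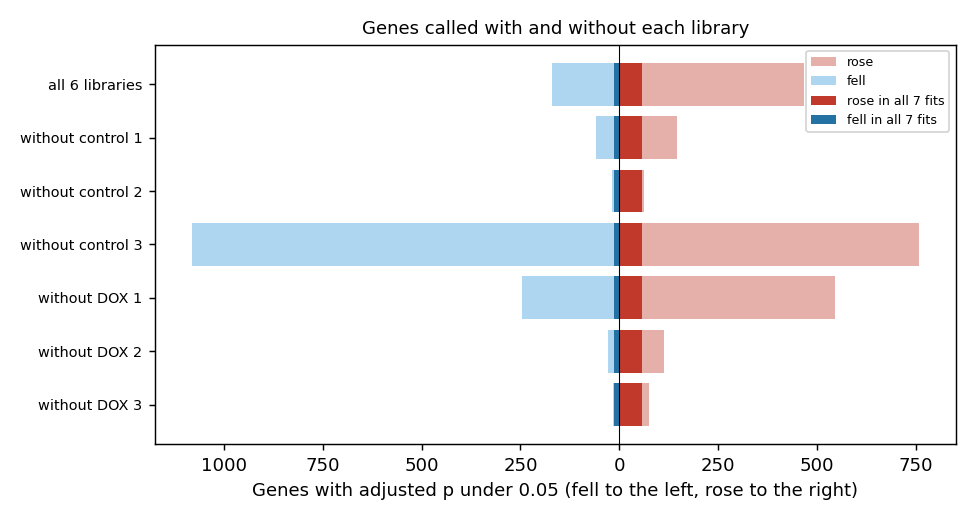
Genes with an adjusted p under 0.05 that rose (right) or fell (left) with all 6 libraries and without each library in turn; dark bars are the genes that held in all 7 fits. The totals run from 81 to 1839 genes, and the held genes (57 rose, 13 fell) make up most of the shortest bars.

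In all, 70 genes held in every replicate (0.332% of those tested): 57 rose (0.27%) and 13 fell (0.0617%). Of the 57 increases, 33 were at least 2-fold, and of the 13 decreases, 4 were. Their median absolute log2 change was 1.07, against 0.44 over all called genes. With the receptor sum as a covariate, 66 of the 70 were still called. Without both control replicates 1 and 2, an alternative chosen after the data were seen, 24 of the 70 were called, among them Etv2, Sox18, Fli1, Rhoj, Kdr, Tal1, Cdh5 and Neurod4. The remaining text is ordered by what these genes do: 11 are transcription regulators, 11 are small GTPases or their regulators, 9 are junction, adhesion or other surface proteins and 7 are receptors. These role groups were put together after the values were seen, so the counts are descriptions. In bulk RNA, more cells of a kind and more RNA per cell cannot be told apart, which applies to each change below.

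**Figure D3:**
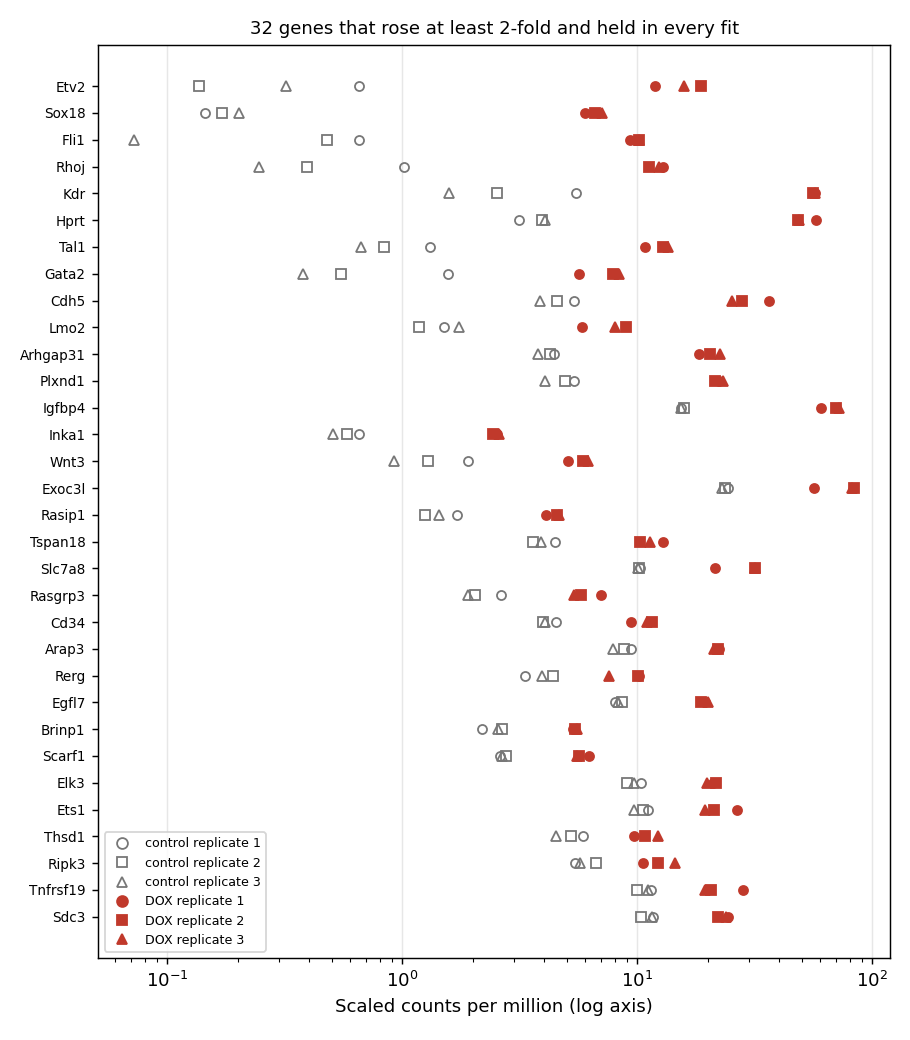
Scaled CPM (log axis) of 32 of the 33 genes that rose at least 2-fold and held in every fit, in each control library (open grey) and DOX library (red); circles, squares and triangles are replicates 1, 2 and 3. No control point reaches a DOX point of the same gene; the control points of Etv2, Fli1, Rhoj and Gata2 spread most, and Igfbp4 and Slc7a8 have nearly equal controls.

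Transcription factors of the blood vessel lining led the increases. Sox18, a SOX factor of arterial and lymphatic endothelium (chr2:181669837-181671640), stood at 0.15, 0.17 and 0.20 scaled CPM in the controls and at 5.99, 6.64 and 7.05 with DOX. All controls were close to silent and the DOX libraries were close together, with a log2 change of 5.20 (SE 0.20, adjusted p = 2.519e-06). Fli1, an ETS factor needed for blood and vessel development (chr9:32422204-32543432), stood at 0.65, 0.48 and 0.07 in the controls and at 9.27, 10.2 and 10.2 with DOX. Its controls ranked as their receptor sums did, so the size of the change (log2 4.73, SE 0.42, adjusted p = 0.0007028) depended on the control used. The lowest DOX library was 14.2 times the highest control, and the highest DOX library was 141 times the lowest.

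Smaller increases came from ETS and other factors that were already present. Ets1, an ETS factor of endothelium and lymphocytes, went from 11.1, 10.6 and 9.66 scaled CPM to 26.5, 21.2 and 19.4. Elk3, an ETS factor that can repress its targets, went from 10.4, 9.02 and 9.71 to 20.9, 21.5 and 19.7. Both doubled, with log2 changes of 1.10 (SE 0.12 for Ets1 and 0.08 for Elk3). Ebf1 (0.93, SE 0.07), known from B cell and stromal development, Nfatc1 (0.90, SE 0.11), a factor of heart valve endothelium, and Hdac7 (0.73, SE 0.06), a deacetylase that supports vessel integrity, also held. Of the 24 endothelial transcription factor genes tested, 8 rose, none fell and 6 held, with a median log2 change of 0.55 (0.34 without DOX replicate 1), against -0.01 over all genes. The count ran from 6 to 9 over the reduced fits, while increases over all genes ran from 62 to 758. Hhex (1.03, adjusted p = 0.016) and Ets2 (0.28, adjusted p = 0.038) rose with all libraries and did not hold. Erg, a close relative of Fli1, stayed low in all libraries, at 0.03 to 1.11 scaled CPM in the controls and 0.84 to 1.54 with DOX, and the groups overlapped.

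A few blood factors rose as well, and most of their list did not pass. Tal1, the bHLH factor required for blood formation, stood at 1.31, 0.84 and 0.67 scaled CPM in the controls and at 10.8, 12.9 and 13.5 with DOX, a log2 change of 3.77 (SE 0.21, adjusted p = 3.392e-05). Gata2, a zinc finger factor of blood stem cells, stood at 1.57, 0.55 and 0.38 and at 5.65, 7.90 and 8.35, a change of 3.22 (SE 0.42, adjusted p = 0.005944). Lmo2, which bridges TAL1 and GATA factors, stood at 1.50, 1.18 and 1.74 and at 5.84, 8.92 and 8.04, a change of 2.36 (SE 0.20, adjusted p = 0.0005634). In Tal1, Gata2 and Lmo2 alike, DOX replicate 1 was the lowest of the DOX libraries and still well above every control. Zfpm1, a cofactor of GATA proteins, rose by 0.70 (SE 0.09, adjusted p = 0.005268) and lost its call only without control replicate 2. Bcl11a, a zinc finger repressor of globin genes, was the 1 member that fell (-0.37, adjusted p = 0.032) and did not hold. Runx1 did not pass (-0.21, adjusted p = 0.316), and its DOX levels of 20.3, 15.1 and 15.1 overlapped the controls (18.5 to 20.8). Of 19 blood factor genes tested, 4 rose, 1 fell and 3 held as increases. Over all genes 2.22% rose, 0.801% fell and 0.27% held as increases. The blood factor list had a median log2 change of 0.17, which ran from -0.003 to 0.43 over the reduced fits. Its count of increases ran from 3 to 5 there, while increases over all genes ran from 62 to 758. Of 12 genes for blood cell products tested, none passed in the edgeR fit described above or by DESeq2, 1 fell at an unadjusted p under 0.05, and 1 rose by limma voom and 1 in edgeR with the receptor sum as a covariate. With no count filter, 1 of 22 rose and 1 fell. Their median log2 change has no settled sign: it was -0.70 with all libraries, -1.27 to -0.36 with 1 library left out, 0.89 with the covariate and 1.72 without control replicates 1 and 2.

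The letters upstream of the genes that rose can be set beside these changes, since ETS factors bind DNA at a GGAA core. The words CCGGAA and CAGGAA, on either strand, were searched in the 250 bases before each start site in RefSeq's promoters (GRCm38.p6). Promoters were matched for 37 of the 57 genes that rose and 6 of the 13 that fell. At least 1 word stood in 40.4% of the 52 promoters of risers, in 25.0% of the 8 promoters of fallers and in 35.1% of all 32851 promoters. The longer word AACAGGAA, which contains CAGGAA, stood in 3.85% of the risers' promoters and 2.25% of all. Shown are the 4 largest held increases with a word and a window that lies outside the gene itself, each read 5′ to 3′ along the gene's strand, with the words in capitals. The windows are chr12:75308063-75308312 for Rhoj, chrX:52987828-52988077 for Hprt, chr7:45627287-45627536 for Rasip1 and chr1:194938571-194938820 for Cd34, all on the plus strand.
Rhoj: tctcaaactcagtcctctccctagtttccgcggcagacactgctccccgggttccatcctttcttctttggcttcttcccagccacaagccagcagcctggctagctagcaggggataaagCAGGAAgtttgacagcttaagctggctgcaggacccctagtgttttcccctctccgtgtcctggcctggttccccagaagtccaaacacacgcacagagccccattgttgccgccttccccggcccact
Hprt: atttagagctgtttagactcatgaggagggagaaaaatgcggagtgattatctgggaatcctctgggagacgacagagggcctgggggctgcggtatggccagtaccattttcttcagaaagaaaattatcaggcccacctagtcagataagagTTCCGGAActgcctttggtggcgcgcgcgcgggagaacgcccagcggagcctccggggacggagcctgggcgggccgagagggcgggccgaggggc
Rasip1: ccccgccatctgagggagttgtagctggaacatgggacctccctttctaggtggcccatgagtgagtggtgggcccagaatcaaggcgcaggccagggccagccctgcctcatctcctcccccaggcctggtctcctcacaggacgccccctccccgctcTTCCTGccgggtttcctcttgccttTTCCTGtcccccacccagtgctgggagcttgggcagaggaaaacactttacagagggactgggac
Cd34: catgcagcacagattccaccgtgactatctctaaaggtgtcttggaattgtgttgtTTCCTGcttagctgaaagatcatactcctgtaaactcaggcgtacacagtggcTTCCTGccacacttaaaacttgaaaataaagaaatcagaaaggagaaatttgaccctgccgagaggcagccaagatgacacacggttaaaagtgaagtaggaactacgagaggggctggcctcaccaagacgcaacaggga
Rhoj has 1 word, at position -129 from the start, and the others have 2 each, which overlap in Hprt as CCGGAA on both strands. A match describes letters and does not show that ETV2 binds there.

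Receptors for vessel growth signals rose next. Kdr, the main VEGF receptor gene and the classic marker of ETV2-driven mesoderm (chr5:75932827-75979072), stood at 5.49, 2.53 and 1.58 scaled CPM in the controls and at 57.2, 55.8 and 57.3 with DOX. The DOX libraries were nearly equal while the controls differed by more than 3-fold, so the log2 change of 4.22 had an SE of 0.32 (adjusted p = 0.0002874). Plxnd1, a semaphorin receptor that guides vessels, went from 5.37, 4.94 and 4.05 to 22.3, 21.5 and 23.0 (log2 2.23, SE 0.11, adjusted p = 1.049e-05). Scarf1, a scavenger receptor of endothelial cells, went from 2.61, 2.77 and 2.66 to 6.24, 5.65 and 5.55 (log2 1.12, SE 0.13). The 3 genes share a pattern in which every DOX library was more than 2-fold above the control mean. Nrp2, a coreceptor for VEGF and semaphorins, began higher, at 31.4 to 35.4, and reached 51.2 to 54.1 (log2 0.67, SE 0.07). Ramp2, the partner of the adrenomedullin receptor, rose by 0.81 (SE 0.09) and Fzd2, a Wnt receptor, by 0.57 (SE 0.06).

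Several receptors of the same list rose in the fit with all libraries but did not hold. Flt4, the VEGF-C receptor gene, stood at 12.9, 10.8 and 9.91 scaled CPM in the controls and at 18.3, 19.8 and 17.8 with DOX (log2 0.74, SE 0.11, adjusted p = 0.009824), and it lost its call only without control replicate 2. Tie1, an orphan receptor of endothelium, stood at 1.81, 1.01 and 0.49 and at 6.97, 4.69 and 4.23 (log2 2.30, SE 0.39). Its groups did not overlap, yet the call was lost without control replicate 2, DOX replicate 2 or DOX replicate 3. Calcrl (1.44, SE 0.25) and Flt1 (0.80, SE 0.14), the genes of the adrenomedullin receptor and of VEGF receptor 1, were also highest in DOX replicate 1 and lost their calls in 2 reduced fits each. Tek, which encodes the angiopoietin receptor, was at 29.6, 31.6 and 31.1 before DOX and at 41.9, 41.0 and 43.9 after it (log2 0.46, SE 0.06, adjusted p = 0.006664), and was kept in 4 of 6 reduced fits. Notch1 (0.12, adjusted p = 0.274) and Eng (0.36, adjusted p = 0.074) did not pass. Of 33 endothelial receptor and signalling genes tested, 15 rose, none fell and 7 held, with a median log2 change of 0.74. The count of 15 dropped to 7 without control replicate 2, to 10 without DOX replicate 2 and to 9 without DOX replicate 3. Increases over all genes also dropped in these fits, from 468 of 21086 to 62 of 21442, 112 of 24402 and 74 of 23503.

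Genes of endothelial junctions and surface gave a mixed picture. Cdh5, which encodes VE-cadherin, the adhesion protein of endothelial junctions, stood at 5.39, 4.55 and 3.86 scaled CPM in the controls and at 36.3, 27.9 and 25.2 with DOX, a log2 change of 2.70 (SE 0.16, adjusted p = 4.863e-05). Cd34, a sialomucin of endothelial and blood progenitors, went from 4.50, 3.99 and 4.05 to 9.36, 11.5 and 10.97 (log2 1.35, SE 0.12, adjusted p = 0.0005634). Egfl7, a secreted factor that endothelial cells deposit along vessels, went from 8.05, 8.61 and 8.27 to 19.4, 18.7 and 20.1 (log2 1.22, SE 0.08, adjusted p = 7.133e-05). Each was at least 2-fold higher in its lowest DOX library than in its highest control. Pecam1, the gene of the endothelial antigen CD31 that embryonic stem cells also carry, did not rise in the same way. It stood at 52.0, 51.7 and 52.1 in the controls and at 51.9, 62.4 and 62.0 with DOX, where replicate 1 lay within the control range (log2 0.18, SE 0.07, adjusted p = 0.199).

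Other members of that list point in both directions. Cldn5, the tight junction claudin of endothelium, went from 0.53, 0.53 and 0.39 to 1.88, 2.15 and 2.29 (log2 2.12, SE 0.28, adjusted p = 0.005944) and lost its call only without DOX replicate 3. Jam2, a junctional adhesion molecule, fell from 47.0, 46.2 and 46.1 to 31.0, 33.7 and 34.8 (log2 -0.48, SE 0.06, adjusted p = 0.005944) and lost its call only without control replicate 2. Nos3, which makes nitric oxide in endothelium (1.26, SE 0.19), and Esam, an endothelial adhesion molecule (1.06, SE 0.22), rose without holding. Podxl (0.26, adjusted p = 0.154) and Mcam (-0.26, adjusted p = 0.152) did not pass. Of 27 junction and surface genes tested, 7 rose, 1 fell and 3 held, with a median log2 change of 0.48, which was 0.21 without DOX replicate 1, 0.84 without control replicate 1 and 1.19 with the receptor covariate. Without control replicate 2 the count of increases was 4 and without DOX replicate 3 it was 3. In those fits 62 and 74 of all genes rose. Outside the list, the surface genes Tspan18 (1.54, SE 0.13), Sdc3 (1.06, SE 0.08), Thsd1 (1.07, SE 0.13) and the integrin gene Itga1 (0.87, SE 0.12) held.

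Small GTPases and their regulators made up 11 of the 57 held increases. Rhoj, a small GTPase of endothelial cells (chr12:75308313-75401455), stood at 1.01, 0.39 and 0.25 scaled CPM in the controls and at 12.9, 11.3 and 12.4 with DOX, a log2 change of 4.58 (SE 0.34, adjusted p = 0.0002787). Arhgap31, which switches off CDC42 and RAC1, went from 4.42, 4.24 and 3.76 to 18.3, 20.4 and 22.4 (log2 2.30, SE 0.11, adjusted p = 1.049e-05). Arap3, which acts on ARF6, went from 9.43, 8.78 and 7.91 to 22.2, 22.0 and 21.2 (log2 1.33, SE 0.09, adjusted p = 8.008e-05). Their DOX libraries were tight and the controls, where they spread, were highest in replicate 1. Rasip1 (1.60, SE 0.18), needed for vessel lumen formation, Rasgrp3 (1.47, SE 0.17), which activates Ras, and Inka1 (2.12, SE 0.24), an inhibitor of the kinase PAK4, also rose. Fgd5 (0.95, SE 0.11) and Arhgef15 (0.81, SE 0.10), exchange factors of endothelial cells, Cdc42ep1 (0.94, SE 0.09), Rerg (1.25, SE 0.15) and Ralb (0.53, SE 0.06) complete the group. Taking all GTPases and regulators by the stem of their symbol, a group put together after the values were seen, 16 of 133 tested rose (12.03%, against 2.22% of all genes), none fell and 11 held. Their median log2 change was 0.07, so most of the 133 moved little.

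Secreted signals, a transporter and an enzyme also rose and held. Igfbp4, which binds insulin-like growth factors, stood at 15.3, 15.8 and 15.4 scaled CPM in the controls and at 60.6, 70.4 and 71.9 with DOX (log2 2.13, SE 0.08, adjusted p = 1.919e-06). Slc7a8, an amino acid transporter gene, stood at 10.3, 10.2 and 10.1 and at 21.4, 31.8 and 31.7 (log2 1.47, SE 0.14). In both genes the uneven controls differed little from each other. Wnt3 (2.08, SE 0.24), the Wnt ligand of the early streak, and Kitl (0.85, SE 0.09), the ligand of KIT, rose too. Hprt, the purine salvage enzyme gene on the X chromosome (chrX:52988078-53021660), was at 3.14, 3.92 and 4.05 before DOX and at 57.4, 48.1 and 48.8 after it. Its log2 change of 3.78 (SE 0.11, adjusted p = 6.406e-07) had the smallest adjusted p of the genes named here, and control replicate 1 was its lowest control. Counts per gene do not show whether these reads come from the resident Hprt gene or from introduced sequence. The cause of the Hprt change was not tested.

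The 13 held decreases were led by genes of the nervous system. Neurod4, a bHLH factor that drives neuron formation, stood at 6.65, 6.74 and 8.38 scaled CPM in the controls and at 1.75, 1.87 and 2.27 with DOX, a log2 change of -1.88 (SE 0.16, adjusted p = 0.0005107). Chrna3, a nicotinic receptor subunit of autonomic neurons, went from 5.42, 4.47 and 4.46 to 1.15, 1.50 and 1.60 (log2 -1.74, SE 0.18, adjusted p = 0.002291). St18, a zinc finger factor of differentiating neurons, went from 3.17, 2.58 and 2.43 to 0.51, 0.62 and 0.21 (log2 -2.61, SE 0.37, adjusted p = 0.008985). The 3 genes were low in every library and lower in each DOX library. Dll1, a Notch ligand of neural and mesodermal precursors, went from 14.1, 14.2 and 14.8 to 8.89, 8.16 and 8.63 (log2 -0.75, SE 0.08, adjusted p = 0.002464). The controls of Dll1 were close together despite their differences elsewhere.

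**Figure D4:**
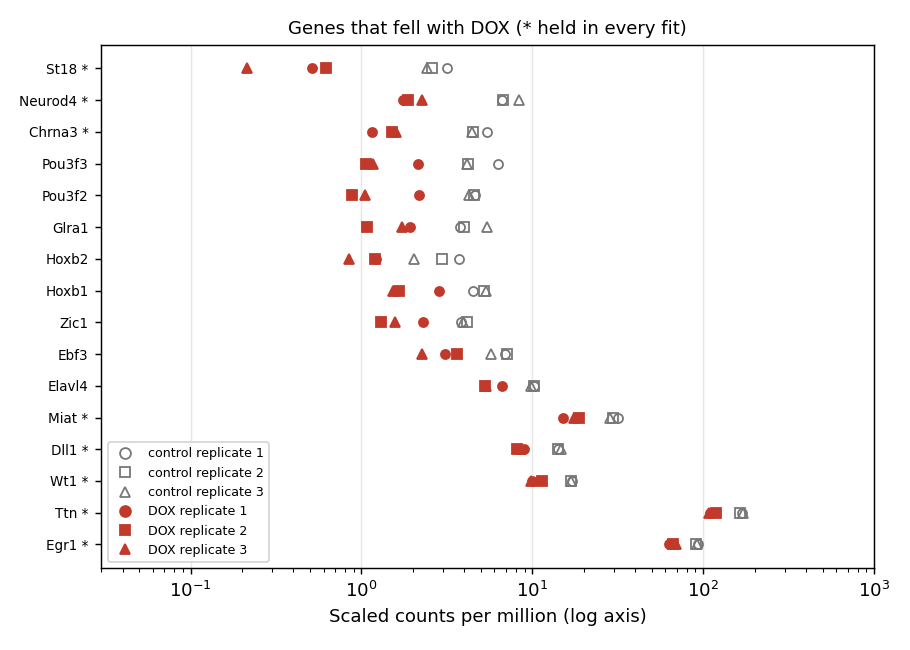
Scaled CPM (log axis) of 8 named genes that held as decreases (*) and of 8 neural genes that fell without holding, in each control library (open grey) and DOX library (red); circles, squares and triangles are replicates 1, 2 and 3. In every gene shown all DOX points lie left of all control points; in Pou3f3, Pou3f2, Zic1 and Hoxb1 the DOX replicate 1 circle lies nearest to the controls.

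Further neural genes were called as lower with all libraries and lost that call in some reduced fits. Pou3f3 (-1.74, SE 0.29) and Pou3f2 (-1.72, SE 0.30), POU factors of neural precursors, had DOX levels of 2.13 and 2.17 in replicate 1 against 0.88 to 1.17 in replicates 2 and 3. Zic1 (-1.21, SE 0.22), Rfx4 (-0.63, SE 0.11) and the glycine receptor gene Glra1 (-1.49, SE 0.24) fell as well. Each of the 5 lost its call without control replicate 2, DOX replicate 2 or DOX replicate 3. Ebf3 (-1.15, SE 0.18) and Elavl4 (-0.81, SE 0.11) lost theirs without control replicate 2 or DOX replicate 3. Of 36 neuron genes tested, 7 fell, 1 rose and 3 of the decreases held, with a median log2 change of -0.46. The 1 that rose, Ebf1, was counted above among the regulators. The 7 decreases became 11 without DOX replicate 1, and 3 without control replicate 2 or without DOX replicate 3. Over all genes the 169 decreases became 245, 19 and 17 in these fits. Of 31 neural progenitor genes, 4 fell and none held. None fell without control replicate 2, DOX replicate 2 or DOX replicate 3, where 19, 28 and 17 of all genes fell. Summed over the list, neuron genes gave 399.1 to 407.7 CPM in the controls and 331.4 to 355.7 CPM with DOX. Among single genes, Crabp1 (-1.06, SE 0.21), Cyp26b1 (-1.46, SE 0.28), Hoxb1 (-1.32, SE 0.23) and Hoxb2 (-1.41, SE 0.28) fell without holding.

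The other held decreases had different roles. Egr1, an immediate early factor, stood at 93.7, 90.5 and 91.6 scaled CPM in the controls and at 63.2, 66.9 and 68.9 with DOX (log2 -0.47, SE 0.05, adjusted p = 0.003106), and was the 1 of 16 immediate early genes tested that passed in edgeR with all libraries. In that list 6 fell at an unadjusted p under 0.05, 3 fell with the 1 CPM filter and 6 by limma voom. Over all genes 370 of 15103 fell with that filter and 1340 of 21086 by limma voom. Wt1, a zinc finger factor of kidney and mesothelium, had nearly identical controls (17.0, 16.9 and 16.9) and DOX levels of 9.93, 11.4 and 9.82 (log2 -0.71, SE 0.08). Ttn, the titin gene of striated muscle, went from 168.0, 164.8 and 170.4 to 109.6, 118.2 and 108.3 (log2 -0.58, SE 0.05). Miat, a long noncoding RNA, fell by 0.81 on the log2 scale (SE 0.09), and 4 predicted genes make up the rest.

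Some genes of early mesoderm rose, and few of these changes held. Of 21 primitive streak and early mesoderm genes tested, 5 rose and 1, Wnt3, held. The list had a median log2 change of 0.34 (0.11 without DOX replicate 1). Without control replicate 2, DOX replicate 2 or DOX replicate 3 the count of increases was 1. In those fits 62, 112 and 74 of all genes rose. Brachyury, listed as T, stayed low at 0.56, 0.31 and 0.19 scaled CPM in the controls and 1.30, 1.66 and 1.29 with DOX (log2 2.04, SE 0.44, adjusted p = 0.042). Its call was lost in 4 of the 6 reduced fits. Lhx1 (1.97, SE 0.40), Rspo3 (1.63, SE 0.28) and Eomes (0.40, SE 0.08) rose with all libraries and did not hold. Of 17 cardiac and lateral mesoderm genes, none rose and 2 fell, Ttn and Isl1, a factor of heart and motor neuron precursors (-1.43, SE 0.29), and only Ttn held. Hapln1, which links matrix proteoglycans, had one of the largest changes (4.69, SE 0.70), at 0.48, 0.09 and 0.01 in the controls and 6.18, 3.79 and 3.16 with DOX, and did not hold. Igf1, a growth factor gene, rose from 2.10, 1.28 and 0.58 to 8.89, 5.55 and 5.22 (2.35, SE 0.39), and Hapln1 and Igf1 both lost their calls without control replicate 2 or DOX replicate 3.

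The genes that set DOX replicate 1 apart belong to endoderm and its basement membrane. Dab2, an adaptor of endoderm cells, stood at 227.9, 216.6 and 225.0 scaled CPM in the controls and at 395.4, 179.3 and 179.3 with DOX. Sparc, a matrix protein of parietal endoderm, stood at 590.0, 583.8 and 591.2 and at 1236, 504.2 and 516.2. Gata4, a factor of endoderm and heart, stood at 54.9, 47.8 and 48.9 and at 97.7, 38.3 and 40.5. All 3 were highest in DOX replicate 1 and below the controls in DOX replicates 2 and 3, so their changes over the group (0.17, 0.35 and 0.22) did not pass and turned negative without that library. Of 21 endoderm genes none passed in the edgeR fit with all 6 libraries, by DESeq2 or by limma voom, nor at an unadjusted p under 0.05 in that edgeR fit. With no count filter 2 of 22 rose, and with the filter 3 fell without DOX replicate 1. Of 20 basement membrane genes 1 rose with all libraries, against 6 that fell without DOX replicate 1. Over all genes 468 of 21086 rose with all libraries and 245 of 24687 fell without DOX replicate 1. With no count filter 1146 of 49423 genes rose. The endothelial factor Sox7, also an endoderm gene, was highest in DOX replicate 1 too. It stood at 39.9, 20.4 and 20.2 with DOX against 16.0 to 17.4 in the controls (0.69, adjusted p = 0.123). The part of this library's endoderm signal in the endothelial results was not tested.

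In the lists for stress, metabolism and other cell kinds no call held, and the number of calls depended on the tool. Increases in edgeR with all libraries were 2 of 22 for glycolysis and hypoxia and 1 of 20 each for the integrated stress response, p53 targets and cholesterol synthesis, against 2.22% of all genes. For glycolysis and hypoxia DESeq2 gave 6 increases and limma voom 13, and for cholesterol synthesis they gave 1 and 10. Over all genes DESeq2 called 1443 of 18224 (966 rose) and limma voom 3819 of 21086 (2479 rose). For fibroblast markers, a sign of feeder cells, 1 of 16 rose, and for smooth muscle and pericyte markers 1 of 12. No trophoblast gene (of 12) and no two-cell-like gene (of 14) changed in the edgeR fit with all libraries or by DESeq2, while 2 and 3 fell at an unadjusted p under 0.05 and limma voom called 2 in each. The edgeR fit on 12 libraries called 1 trophoblast gene as lower. Replication-dependent histone genes, whose transcripts mostly lack a poly(A) tail, rose in 16 of 69 with none holding (27 by DESeq2, 43 by limma voom). The count was 0 without control replicate 2 or DOX replicate 3 and 26 without DOX replicate 1. In those fits 62, 74 and 546 of all genes rose. Mitochondrially encoded genes rose in 4 of 13 with none holding (4 by DESeq2, 8 by limma voom), and their share of counts was 4.81 to 5.55% in the controls and 5.52 to 6.17% with DOX.

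The response was then set beside that of the iETV2 line, which lacks the KDM4A (H188A) name, in 3 DOX and 3 control libraries of its own. The lines belong to different experiments per the labels, so line and experiment cannot be told apart in these values. Of the 57 genes that rose and held, 52 also rose in iETV2 (91.23% of the 57 and 1.728% of the genes that rose there), where 13.7% of genes tested rose. Pkdcc, Fzd2 and Frem2 rose in the H188A line and fell in iETV2. The difference of the 2 responses was tested as an interaction over 25516 genes, of which 14.4% passed. Among the 57, the response was smaller in the H188A line in 19 genes, larger in 14 and without a called difference in 24.

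**Figure D5:**
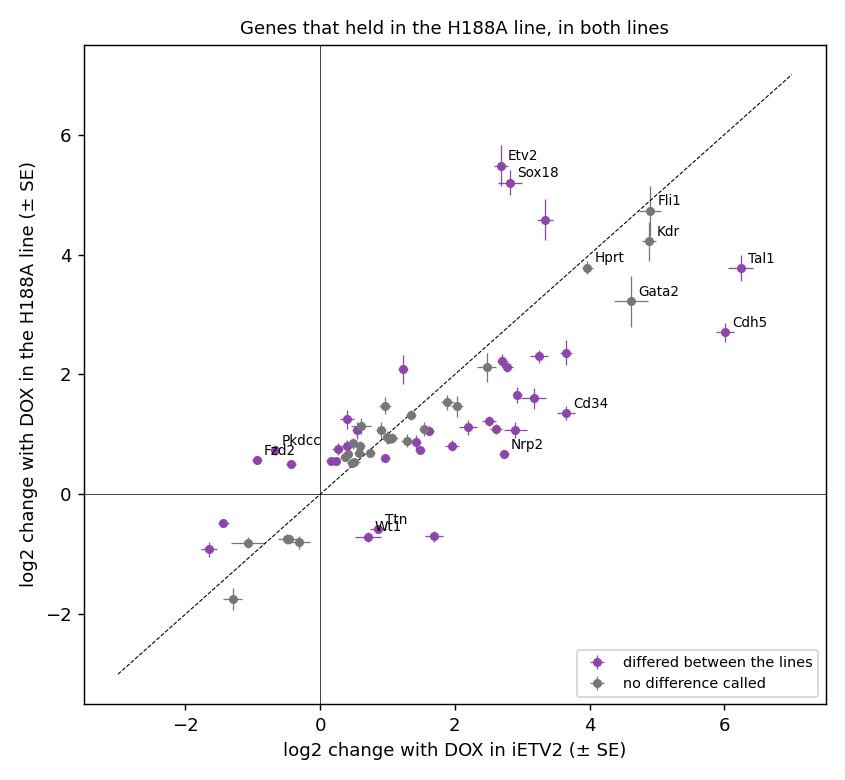
Log2 change with DOX in iETV2 (horizontal) and in the H188A line (vertical), each with its SE, for 66 of the 68 held genes tested in both lines; the dashed line marks equal changes and purple marks genes whose interaction passed an adjusted p of 0.05. Cdh5, Tal1, Cd34 and Nrp2 lie below the dashed line, Etv2 and Sox18 above it, and Kdr, Fli1 and Hprt near it.

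The junction and blood genes were among the smaller responses. Cdh5 rose by 2.70 in the H188A line and by 6.01 (SE 0.13) in iETV2 (interaction adjusted p = 1.609e-07), with controls of 4.05 to 5.42 scaled CPM in the H188A line and 0.70 to 1.28 in iETV2, on the scale of all 12 libraries. Its DOX levels were 26.1 to 37.3 in the H188A line and 63.2 to 64.0 in iETV2, so both ends differed. Tal1 rose by 3.77 and 6.24 (SE 0.18, interaction adjusted p = 0.0001716), Lmo2 by 2.36 and 3.65 (SE 0.09, interaction adjusted p = 0.0007645) and Cd34 by 1.35 and 3.65 (SE 0.14, interaction adjusted p = 3.8e-07). Nrp2 rose by 0.67 against 2.73 (SE 0.07, interaction adjusted p = 4.986e-09). Tek and Pecam1 began high in the H188A line: Tek at 29.8 to 32.6 scaled CPM against 2.01 to 2.13 in iETV2 controls, and Pecam1 at 52.3 to 54.7 against 5.13 to 5.95. With DOX, Tek reached 41.8 to 45.4 in the H188A line and 37.6 to 41.4 in iETV2.

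Among the larger responses, low controls stood out. Etv2 rose by 5.48 against 2.68 (SE 0.10, interaction adjusted p = 5.257e-05), from 0.14 to 0.66 scaled CPM in the H188A controls and 2.70 to 3.03 in the iETV2 controls. Its DOX levels overlapped, at 12.2 to 19.1 and 17.2 to 19.7. Sox18 rose by 5.20 against 2.82 (SE 0.18, interaction adjusted p = 0.0002073), with DOX levels of 6.15 to 7.30 in the H188A line and 10.8 to 14.7 in iETV2. For Sox18 the larger log2 change thus went with a lower level after DOX.

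For Kdr (4.22 against 4.89), Fli1 (4.73 against 4.90), Gata2 (3.22 against 4.62) and Hprt (3.78 against 3.97) no difference between the lines was called, which does not show that they respond alike. Kdr levels with DOX were 56.9 to 59.3 scaled CPM in the H188A line and 220.3 to 236.6 in iETV2. Of the 13 held decreases, 5 also fell in iETV2, where 13.3% of genes fell, and Ttn, Wt1 and 1 predicted gene rose there. Neurod4 and St18 were below the count filter in the iETV2 fit. Dll1 (-0.75 against -0.49, interaction adjusted p = 0.181) showed no called difference.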

How the data were processed

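RNA was measured in mouse embryonic stem cells. The values are whole read counts as the authors deposited them, with 55487 Ensembl genes in each library, and 55141 of these IDs matched a symbol. Per the submitters' processing notes the tools included STAR 2.7.10b, featureCounts 2.0.6, HTSeq 2.0.3 and DESeq2 1.18.1, with build GRCm38. Which tool made the counts and its strand setting are not given in the sources used here, so antisense, overlapping and near-identical genes are uncertain.

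Counts were filtered with filterByExpr by group (21086 genes kept), scaled by TMM and tested with edgeR 4.0.16 (glmQLFit, glmQLFTest; R 4.3.3), with Benjamini-Hochberg adjustment over all genes and a threshold of 0.05. SE is the log2 change over the square root of F. List sums are CPM of library totals without TMM. The interaction was fitted on 12 libraries with 4 group means. The fits were tested on simulated counts with 1 mean per gene in a group, so differences between replicates such as the receptor and endoderm sums were absent. The overlap rule was left out there. At a simulated log2 size of 1, 77% of 100 genes were called and 68% passed in all 7 fits. At a size of 2 these were 97% and 95%. Of the unchanged genes 18 were called and 1 passed in all 7 fits. These shares do not carry over to the uneven libraries. Alternatives used DESeq2 1.42.0, limma 3.58.1 (voom), RLE scaling, other filters, left-out libraries, a replicate block and the receptor sum as a covariate.

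Same-numbered control and DOX libraries correlated at -0.208, 0.152 and 0.346 after removing group means, so the numbers were not taken to pair them.

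The comparison, the gene lists and the rules were chosen with earlier results of these data known. Genes were named as a set panel, the 12 largest changes each way, the 12 largest held increases, held decreases, leading list members and members whose call hung on 1 library. The other held genes and Calcrl, Crabp1, Erg, Esam, Ets2, Flt1, Hhex, mt-Nd6, Nos3, Runx1, Sox7, Sparc, T and Tie1 were named after their values were seen. A promoter window inside the gene's own span was not printed. Some held genes are counted but not reported here by name and are not plotted.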

Additional observations from a re-analysis of the deposited data

Results flagged for a closer look

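The DOX response differed between the H188A line and iETV2 for 10 genes of the named panel, by the interaction test of edgeR (H188A minus iETV2, log2). It was larger in the H188A line for Etv2 (2.81, SE 0.36, adjusted p = 5.257e-05) and Sox18 (2.38, SE 0.35, adjusted p = 0.0002073). It was smaller for the junction and receptor genes Tek (-3.79, SE 0.11, adjusted p = 5.59e-12), Cdh5 (-3.29, SE 0.24, adjusted p = 1.609e-07) and Pecam1 (-2.16, SE 0.11, adjusted p = 1.094e-08), and for the blood factors Tal1 (-2.44, SE 0.35, adjusted p = 0.0001716) and Lmo2 (-1.29, SE 0.22, adjusted p = 0.0007645). The demethylase genes Kdm4b (0.60, SE 0.10, adjusted p = 0.0005131) and Kdm4c (0.40, SE 0.11, adjusted p = 0.01877) and Pou5f1 (0.53, SE 0.16, adjusted p = 0.03782) had positive differences. For Kdm4b the iETV2 line went from 62.5 to 66.0 scaled CPM in the controls to 41.5 to 48.3 with DOX, while the H188A line stayed between 34.1 and 39.0 in all 6 libraries. Line and experiment cannot be told apart in these differences.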

How the results depend on the processing

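The 637 calls with all 6 libraries became 423 with RLE scaling, 2032 with no filter (56.4% rose), 824 with a filter of 1 CPM (55.1% rose), 1443 with DESeq2, 3819 with limma voom and quality weights, 122 with the receptor sum as covariate and 81 to 1839 without 1 library. With all libraries 73.5% rose, and without control replicate 3 41.22% rose. Without both control replicates 1 and 2, an alternative chosen after the data were seen, 37 genes were called (94.59% rose), 24 of the 70 held genes among them. With the replicate block, which rests on numbers that do not pair the libraries, 263 genes were called. All 70 held genes were called with RLE, with either filter, with DESeq2, with voom and with the block, 66 with the receptor covariate and 69 in the fit on 12 libraries. The count that held was 76 with RLE scaling (70 shared), 81 with the 1 CPM filter (64 shared) and 163 in the fit on 12 libraries (62 shared, chosen after the data were seen).

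Among the genes followed over all settings, signs turned in 6, none of which passed with all libraries. Other genes that did not pass also changed sign over left-out libraries, such as Lama1 (-0.51 to 0.32) and Cubn (-0.34 to 0.28). With voom weights the log2 change was -0.17 for Gata4, -0.16 for Dab2 and -0.062 for Sparc, and over left-out libraries it ran from -0.34 to 0.47, from -0.30 to 0.39 and from -0.19 to 0.60, lowest without DOX replicate 1. Kdm4c gave 0.0072 with no filter and -0.091 to 0.018 over left-out libraries. Sox2 gave -0.031 with the 1 CPM filter, -0.057 with the covariate, -0.070 without control replicates 1 and 2 and -0.036 to 0.077 over left-out libraries. Nanog gave -0.0045 without control replicates 1 and 2.

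Genes under about 1 scaled CPM in the controls rest on few counts, so their log2 changes are the least certain in size. With 3 libraries a group, an exact permutation test of 1 gene cannot give a two-sided p below 0.1, so calls rest on the spread that edgeR shares over genes. No batch is named within the line.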

Other observations

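Control replicate 1 was the highest control in 32 of the 57 held increases (56.1%), against 44.6% of all genes tested. The controls ranked as their receptor sums did in 20 of the 57 (35.1%), against 30.7% of all genes. Where control replicate 1 was high, as in Kdr (5.49 scaled CPM) and Rhoj (1.01), the group difference was smaller for it than for the other controls.

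A pair of mitochondrial genes ordered the control libraries in opposite ways. The level of mt-Nd6, the 1 protein gene on the light strand, was 59.7, 36.8 and 25.7 scaled CPM in control replicates 1, 2 and 3 and 19.0, 26.2 and 29.9 with DOX, in the same order over the controls as the receptor sums. The heavy-strand gene mt-Cytb had the reverse order and stood at 5912, 6376 and 6891 in the controls and 7851 to 8470 with DOX. The cause of these differences was not tested.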
